A study of Mus musculus with 9 samples.

Results

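The genes described here are 10 integrins and adhesion molecules of T cells: the integrin chains Itgal, Itgb2, Itgae, Itga4, Itgb1 and Itgb7, the ligand Icam1, the hyaluronan receptor Cd44, and the receptor Cd2 with its ligand Cd48. They were taken by name, and all 10 were matched by Ensembl identifier among the 32976 genes counted in each library. The RNA came from GSW11-specific CD8+ T cells sorted from tumors, where GSW11 is a peptide of the CT26.WT colorectal carcinoma line, and each of 9 libraries was made from a bulk sort. All mice were wildtype BALB/c animals with subcutaneous CT26 tumors, and all received the PD-1 antibody RMP1-14 on days 3, 6 and 9, so there was no untreated group.

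The 9 libraries fell into 3 groups of 3. TetHighProg holds cells that bound the GSW11 tetramer strongly (high avidity) from progressing tumors, TetLowReg holds cells that bound it weakly (low avidity) from regressing tumors, and TetLowProg holds low avidity cells from progressing tumors. The sort took CD8+CD44+ cells, so that Cd44 was a gate in every group and serves only as a check. Summaries over the 10 genes include it. The mean numbers found, the numbers of positive fold changes with their medians, and the mean shares of gene counts are also given without it. Tumor outcome and avidity both differ between TetLowReg and TetHighProg and cannot be told apart there. In a bulk sort, fewer cells with a transcript and less RNA per cell cannot be told apart either.

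Integrins are heterodimers of an alpha and a beta chain, and neither chain reaches the cell surface without a partner. Itgal pairs with Itgb2 to form LFA-1, which binds Icam1 and holds the contact between a cytotoxic T cell and its target. Itgae pairs with Itgb7 to bind E-cadherin on epithelium, and Itga4 pairs with Itgb1 to bind Vcam1 or with Itgb7 to bind Madcam1 in gut vessels. Cd2 on the T cell binds Cd48 in the mouse, and Cd44 marks T cells that have met antigen.

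Itgal and Itgb2 were found in the same libraries, those with the most genes found. Cd2 was the only one of the 10 genes whose libraries did not overlap between TetLowReg and TetHighProg. The promoter windows of Itgal, Itgb2 and Cd2 are therefore given. Each runs 5′ to 3′ on the strand of its gene, from 250 bases before to 50 bases after the start of the canonical transcript in GENCODE M39 on GRCm39: chr7:126895182-126895481 (plus strand) for Itgal, chr10:77365836-77366135 (plus strand) for Itgb2 and chr3:101195409-101195708 (minus strand) for Cd2. Capitals mark matches on either strand to 4 motifs.
Itgal: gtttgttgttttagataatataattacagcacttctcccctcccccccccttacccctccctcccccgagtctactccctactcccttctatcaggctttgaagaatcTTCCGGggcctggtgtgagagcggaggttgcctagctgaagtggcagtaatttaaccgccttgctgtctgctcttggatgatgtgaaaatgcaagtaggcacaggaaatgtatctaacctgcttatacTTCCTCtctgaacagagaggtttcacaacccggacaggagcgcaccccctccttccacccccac
Itgb2: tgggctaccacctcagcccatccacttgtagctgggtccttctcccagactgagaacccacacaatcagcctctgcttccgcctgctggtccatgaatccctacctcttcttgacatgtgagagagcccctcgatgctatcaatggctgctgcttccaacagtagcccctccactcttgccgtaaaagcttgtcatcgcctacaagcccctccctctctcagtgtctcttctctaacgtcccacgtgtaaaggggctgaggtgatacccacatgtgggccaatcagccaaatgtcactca
Cd2: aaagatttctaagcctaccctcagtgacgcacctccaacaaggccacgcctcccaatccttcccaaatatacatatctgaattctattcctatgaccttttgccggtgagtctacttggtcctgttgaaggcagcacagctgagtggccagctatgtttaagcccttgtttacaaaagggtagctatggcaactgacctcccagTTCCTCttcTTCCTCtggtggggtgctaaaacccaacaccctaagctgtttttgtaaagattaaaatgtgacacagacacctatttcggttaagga
The motifs were the RUNX core TGTGGT, the ETS core CCGGAA, the GC box GGGCGG and the PU box GAGGAA, the last added after these windows had been read, so that its matches were found by eye first and its count carries no weight. The Itgal window held CCGGAA once, in reverse at position -142 from the start, and GAGGAA once, in reverse at -14. The Cd2 window held GAGGAA in reverse at -46 and -37, and the Itgb2 window held none of the 4 motifs. Of 20726 promoters of the same length, 15.2% held TGTGGT, 17.3% CCGGAA, 43.7% GGGCGG and 27.6% GAGGAA, against 2, 2, 4 and 5 of the 10 adhesion genes.

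The libraries held 16405306 to 36429515 gene counts, yet they differed widely in how many genes they contained. The 4 sparsest libraries, TetHighProg 1 and 2, TetLowReg 6 and TetLowProg 10, had 10 counts or more (called found here) for 599 to 1298 genes, and the other 5 for 3181 to 8071 genes. Mitochondrial genes took 44.5% of the gene counts of TetLowReg 7 and 14.2% of those of TetLowReg 8, against 1.36% to 6.07% in the other 7 libraries. No replicate pair agreed within sampling noise, and none was merged. The T cell markers checked (10 genes) were found at 3 to 10 per library, with Cd8a at 0 counts in TetHighProg 1 and 2 and in TetLowProg 10, and Cd8b1 at 8 counts in TetLowReg 6. Of 7 B cell markers, 6 and 7 were found in TetLowReg 7 and 8, 7 in TetLowProg 12, 1 in TetLowProg 9 and none elsewhere. Of 13 macrophage and dendritic cell markers, 6 were found in TetLowReg 7 and 0 to 3 in each other library. Of 3 markers of CD4 T cells and Tregs, 2 were found in each of TetLowReg 7 and 8, summing to 59.0 and 38.2 CPM, and the sums elsewhere were 0 to 0.0635 CPM. The B cell markers summed to 1260 and 1296 CPM in TetLowReg 7 and 8, and to 242 and 2251 CPM in TetLowProg 9 and 12. Elsewhere they summed to 0.0454 to 0.316 CPM. Cd2 was found in those libraries with B cell markers and in TetLowReg 6. CD4 T cells share Itgal, Itgb2, Itgae, Cd44 and Cd2 with CD8 T cells. The B cell and myeloid lists stand for cell types that express several of the 10 genes, Itgb2, Itga4, Itgb7, Icam1 and Cd48 among them. The part of these cell types in the levels below, that of Cd2 included, was not tested.

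The number of the 10 adhesion genes found was 1, 0 and 4 in TetHighProg 1, 2 and 5, 1, 9 and 5 in TetLowReg 6, 7 and 8, and 10, 1 and 8 in TetLowProg 9, 10 and 12. The range within each low avidity group was wider than any difference between group means. The means were 1.67 ± 2.08 in TetHighProg, 5 ± 4 in TetLowReg and 6.33 ± 4.73 in TetLowProg (SD, n = 3). The difference of TetLowReg from TetHighProg was 3.33 genes, and it was 1.33 without TetLowReg 7 and 5.33 without TetLowReg 6. The difference of TetLowProg from TetHighProg was 4.67, and it was 2.83 without TetLowProg 9 and 7.33 without TetLowProg 10. Between TetLowProg and TetLowReg it was 1.33, and it turned to -0.667 without TetLowReg 6 and to -0.5 without TetLowProg 9, while it was 3.33 without TetLowReg 7, 4 without TetLowProg 10 and 0.5 without TetLowProg 12. With the 4 libraries of few genes left out, the differences were 3, 5 and 2, with TetHighProg 5 as the only library left in its group. Without Cd44, the gate, the means were 1.33 ± 1.53, 4.67 ± 4.04 and 5.67 ± 4.16 of 9 genes.

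The number of adhesion genes found moved with the number of all genes found. Among the 5813 genes that entered the test, TetHighProg 1, 2 and 5 held 20.7%, 9.67% and 46.4% at 10 counts or more, TetLowReg 6, 7 and 8 held 12.6%, 86.9% and 81.2%, and TetLowProg 9, 10 and 12 held 89.5%, 18.8% and 88%. Of the 8 adhesion genes among them, 0, 0 and 4, then 1, 7 and 5, then 8, 1 and 8 were found in the same libraries. Of all 10 adhesion genes, TetHighProg 2 held no count, and each of the other 3 libraries with few genes held 1 at 10 counts or more, which in TetHighProg 1 was Itgae, outside the 8. Cd2 made up 99.99% of the adhesion gene counts of TetLowReg 6, Itgb7 99.95% of those of TetLowProg 10 and Itgae 99.8% of those of TetHighProg 1.

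**Figure D1:**
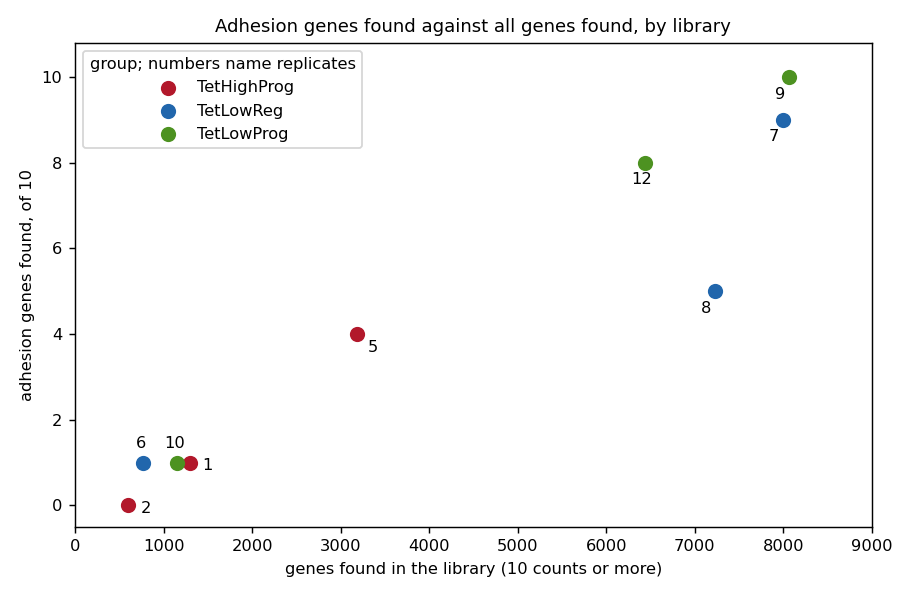
Adhesion genes found (of 10) against all genes found, both at 10 counts or more, with 1 point per library, colored by group and numbered by replicate. The 4 libraries with 599 to 1298 genes held 0 or 1 of the adhesion genes, and the 3 libraries with 8 or more of them held 6443 to 8071 genes.

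Levels are given as CPM (gene counts scaled by library total), and comparisons between genes as CPM per kilobase of the canonical transcript. PCR copies carried no molecular identifiers, so counting intervals and limits cover counting error only. The limit of 3 counts used for a gene at 0 stood for 0.0824 to 0.183 CPM in a library, depending on its depth. Nothing in the labels ties the libraries to separate mice, so p-values measure the spread between these libraries, which may be technical. With 3 libraries a group the exact permutation test of a difference in mean CPM cannot go below p = 0.1.

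**Figure D2:**
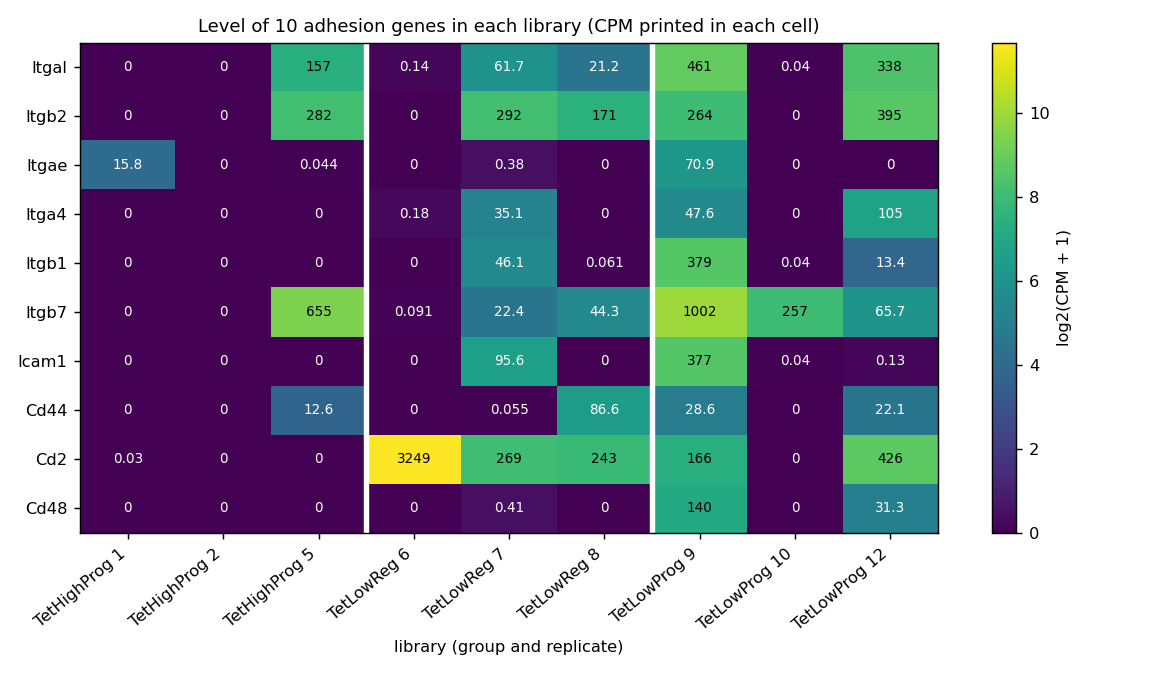
Level of each of the 10 adhesion genes (rows) in each of the 9 libraries (columns), colored by log2(CPM + 1) with the CPM printed in each cell. Cd2 reached 243 to 3249 CPM in the TetLowReg libraries, and most cells of TetHighProg 1 and 2, TetLowReg 6 and TetLowProg 10 are at 0.

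Itgal (ENSMUSG00000030830, chromosome 7, 126895432 to 126934320, plus strand), the alpha chain of LFA-1, had 0, 0 and 157 CPM in TetHighProg 1, 2 and 5. It had 0.136, 61.7 and 21.2 CPM in TetLowReg 6, 7 and 8 and 461, 0.0398 and 338 CPM in TetLowProg 9, 10 and 12. The groups overlapped, since each had at least 1 library at or close to 0. Itgb2 (ENSMUSG00000000290, chromosome 10, 77366086 to 77401542, plus strand), its beta chain, had 0, 0 and 282 CPM, then 0, 292 and 171 CPM, then 264, 0 and 395 CPM in the same order of libraries. In the 5 libraries that held it, Itgb2 stayed between 171 and 395 CPM in all 3 groups, while Itgal ran from 21.2 to 461 CPM.

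Itgal and Itgb2 were both found in the same 5 libraries and neither was found in the other 4. Those 5 were the libraries with 3181 to 8071 genes found, and the other 4 were those with 599 to 1298. Finding both together is thus not particular to this pair. Per kilobase, the level of Itgal was 0.316 times that of Itgb2 in TetHighProg 5, 0.120 and 0.0702 times in TetLowReg 7 and 8, and 0.990 and 0.487 times in TetLowProg 9 and 12. The beta chain, which also serves the myeloid integrins, was thus the higher of the pair in 4 of the 5 libraries, and in TetLowProg 9 the levels differed by less than their counting intervals. In TetLowReg 7, where its ratio was low, the macrophage and dendritic cell markers summed to 8560 CPM, and in TetLowReg 8 to 1239 CPM, against 38.4 and 579 CPM in TetLowProg 9 and 12 and 435 CPM in TetHighProg 5. Their part in the ratio was not tested.

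Itgae (ENSMUSG00000005947, chromosome 11, 72981409 to 73039917, plus strand), the CD103 chain of tissue-resident T cells, had 15.8, 0 and 0.0441 CPM in TetHighProg 1, 2 and 5. It had 0, 0.384 and 0 CPM in TetLowReg 6, 7 and 8 and 70.9, 0 and 0 CPM in TetLowProg 9, 10 and 12. Only TetHighProg 1 and TetLowProg 9 held more than 14 counts of it, and it did not pass the count filter of the test. Itgb7 (ENSMUSG00000001281, chromosome 15, 102124429 to 102140379, minus strand), its beta chain, had 0, 0 and 655 CPM, then 0.0907, 22.4 and 44.3 CPM, then 1002, 257 and 65.7 CPM in the same order. It was the most widely found of the 10 genes, in 6 of 9 libraries including all 3 of TetLowProg, and it ranked 89th among all genes of TetLowProg 9.

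Itgae and Itgb7 were found together in 2 libraries, Itgae alone in 1 and Itgb7 alone in 4. Where both were found, the level of Itgae per kilobase was 0.00839 times that of Itgb7 in TetLowReg 7 and 0.0345 times in TetLowProg 9. Itgb7 is also the partner of Itga4, which accompanied it in 3 of its 6 libraries.

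Itga4 (ENSMUSG00000027009, chromosome 2, 79085660 to 79163467, plus strand), the CD49d chain, had 0 counts in all 3 TetHighProg libraries. It had 0.181, 35.1 and 0 CPM in TetLowReg 6, 7 and 8 and 47.6, 0 and 105 CPM in TetLowProg 9, 10 and 12. Itgb1 (ENSMUSG00000025809, chromosome 8, 129411876 to 129460618, plus strand), the CD29 chain that completes VLA-4, had 0 counts in TetHighProg, 0, 46.1 and 0.0610 CPM in TetLowReg, and 379, 0.0398 and 13.4 CPM in TetLowProg. Both were found in the same 3 libraries, TetLowReg 7 and TetLowProg 9 and 12, and in no other. Which of the pair was the higher differed between those libraries, with a ratio of Itga4 to Itgb1 per kilobase of 0.383, 0.0632 and 3.97.

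Itga4 shares 3481 exon bases with Cerkl on the opposite strand in GENCODE M39, and the counts took no account of strand. Reads in the shared bases are then left out of both genes, so that the Itga4 level is a lower reading of its transcript. Cerkl had 2074 counts in TetLowReg 7 and at most 1 in the other 8 libraries.

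Icam1 (ENSMUSG00000037405, chromosome 9, 20926672 to 20940113, plus strand), the ligand of LFA-1, had 0 counts in the 3 TetHighProg libraries, 0, 95.6 and 0 CPM in TetLowReg and 377, 0.0398 and 0.127 CPM in TetLowProg. It was thus found in 2 libraries, TetLowReg 7 and TetLowProg 9, and the values of TetLowProg 10 and 12 rest on 1 and 4 counts. Both libraries that held it also held Itgal and Itgb2. Icam1 shares 511 exon bases with the noncoding gene Gm47079 on the opposite strand, a gene not among those matched in the tables, and it did not pass the count filter. With both strands counted, Icam1 had 26 reads in each of TetLowReg 8 and TetLowProg 12. It then had 5265 in TetLowReg 7, against 3482 unstranded, and 17265 in TetLowProg 9, against 13685.

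Cd44 (ENSMUSG00000005087, chromosome 2, 102641486 to 102732010, minus strand), on whose protein the cells were gated, had 0, 0 and 12.6 CPM in TetHighProg, 0, 0.0549 and 86.6 CPM in TetLowReg and 28.6, 0 and 22.1 CPM in TetLowProg. It reached 10 counts in 4 of 9 libraries, had 2 counts in TetLowReg 7 and was at 0 in the other 4, although every library came from cells sorted for its protein. That check bears on every 0 above: a transcript with 0 counts in such a library is not shown to be absent from the cells.

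Cd2 (ENSMUSG00000027863, chromosome 3, 101183215 to 101195458, minus strand), which strengthens adhesion to cells that carry Cd48, had 0.0299, 0 and 0 CPM in TetHighProg 1, 2 and 5. It had 3249, 269 and 243 CPM in TetLowReg 6, 7 and 8 and 166, 0 and 426 CPM in TetLowProg 9, 10 and 12. Every TetLowReg library stood above every TetHighProg library, whose 3 libraries held 1 count in all. TetLowProg overlapped TetHighProg through TetLowProg 10. TetLowReg 6, with 766 genes found, had the highest level, and Cd2 ranked 87th among its genes with 71620 counts.

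Cd48 (ENSMUSG00000015355, chromosome 1, 171509573 to 171532826, plus strand), the ligand of Cd2, had 0 counts in TetHighProg, 0, 0.412 and 0 CPM in TetLowReg and 140, 0 and 31.3 CPM in TetLowProg. Its 15 counts in TetLowReg 7 were the sum of that group. Cd2 and Cd48 were found together in 3 libraries, Cd2 without Cd48 in 2, and neither in 4. Per kilobase, Cd2 stood at 574 times the level of Cd48 in TetLowReg 7, at 1.04 times in TetLowProg 9 and at 11.9 times in TetLowProg 12.

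**Figure D3:**
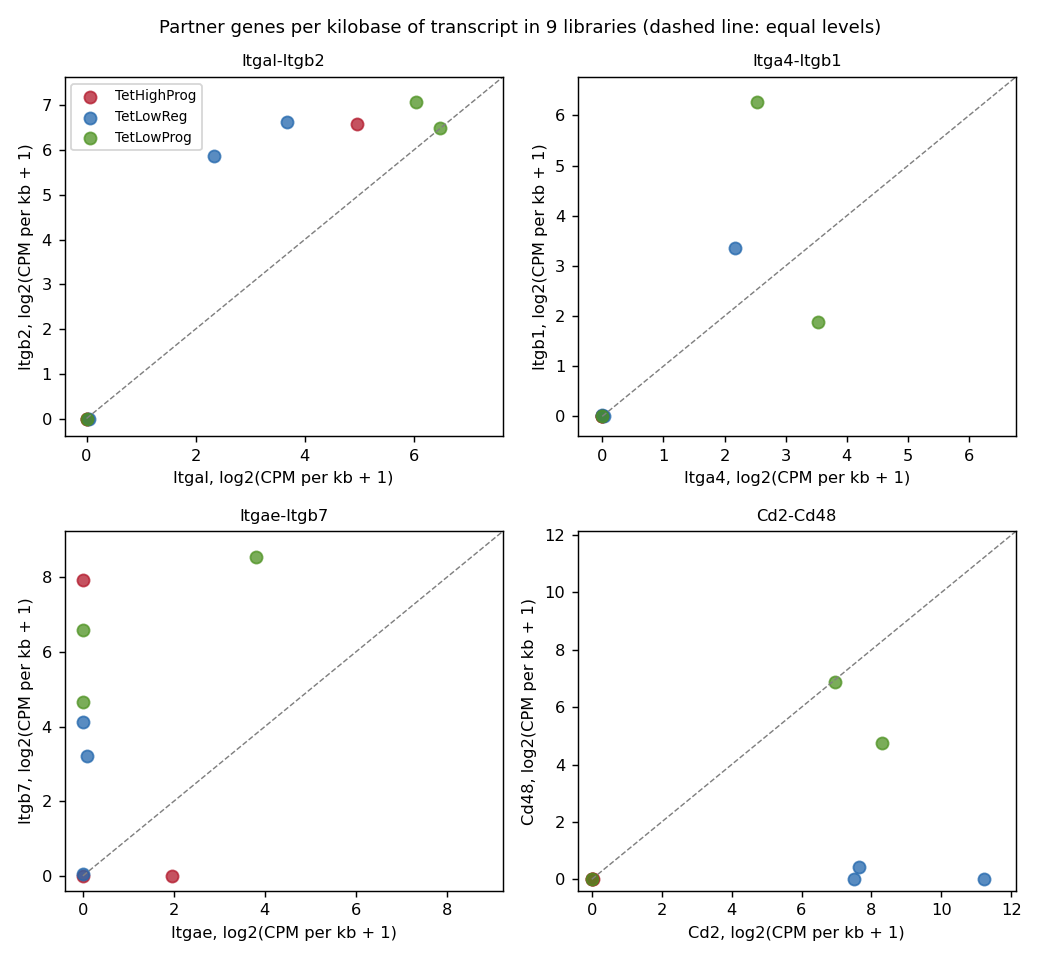
Levels of partner genes in the 9 libraries as log2(CPM per kilobase + 1), the first gene of each pair on the x axis and the second on the y axis, with 1 point per library colored by group. Itgal and Itgb2 both reached 10 counts in the same 5 libraries, the 5 with the most genes found, on or above the dashed line of equal levels. Cd2 lay far along its axis in TetLowReg with Cd48 close to 0.

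In order of mean level per kilobase (CPM per kilobase ± SD, n = 3), Itgb7 led in TetHighProg (81.4 ± 141), followed by Itgb2 (31.7 ± 54.9), Itgal (10.02 ± 17.4), Itgae (0.964 ± 1.66) and Cd44 (0.746 ± 1.29). In TetLowReg the order was Cd2 (924 ± 1275), Itgb2 (52.0 ± 49.4), Icam1 (10.1 ± 17.6), Itgb7 (8.30 ± 8.24) and Itgal (5.29 ± 5.98). In TetLowProg it was Itgb7 (165 ± 184), Cd2 (145 ± 158), Itgb2 (73.9 ± 67.7), Itgal (50.9 ± 45.6) and Cd48 (47.9 ± 61.6). No neighbors in these orders differed by more than the larger of their SDs, and in TetHighProg each mean rested almost wholly on a single library.

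TetLowReg against TetHighProg asks how low avidity cells of regressing tumors differ from high avidity cells of progressing ones. edgeR tested 8 of the 10 genes and called 0 of them at a Benjamini-Hochberg adjusted p under 0.05 with an absolute log2 fold change above 2, where it also called 0% of all 5813 genes. Cd2 had a log2 fold change of 16.18 (SE 5.45, edgeR quasi-likelihood test with Benjamini-Hochberg adjustment, adjusted p = 0.233), and it was higher in 3 of 3 TetLowReg libraries. Summed over the libraries of a group, Cd2 was 92849-fold higher in CPM over the group, with a 95% counting interval of 16664 to 3667400 because TetHighProg held 1 count. TetLowReg 6 gave 71620 of the 85384 Cd2 counts of its group, and without it the ratio was 21211-fold (95% counting interval 3806 to 837860). Without TetLowReg 7 it was 160110-fold (28736 to 6324080), and without TetHighProg 1, which held the single count, at least 18250-fold. The exact permutation test gave p = 0.1, the smallest it can give. Of all genes, 4.8% had libraries that did not overlap in this direction, against 1 of the 8 adhesion genes.

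The other genes were less separated in that comparison. Itga4 was at least 465-fold, Itgb1 at least 609-fold, Icam1 at least 1262-fold and Cd48 at least 5.44-fold higher in the summed TetLowReg counts, against a limit of 3 counts over the TetHighProg group, but Itgb1, Icam1 and Cd48 were found in TetLowReg 7 alone. Itga4 was found there alone too, and the exact permutation p was 0.4 for Itga4 and Itgb1 and 1 for Icam1 and Cd48. Without TetLowReg 7 the limit for Itga4 was at least 2.82-fold, Itgb1, Icam1 and Cd48 had 1, 0 and 0 counts in TetLowReg and no fold could be given, and the fitted log2 fold change was 4.21 for Itga4 (12.15 with it), 3.02 for Itgb1 (12.54 with it) and 0 for Cd48. That library had the highest share of mitochondrial counts, 44.5%.

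Itgb7 had a fitted log2 fold change of -2.59 (SE 3.90), which turned to 12.74 without TetHighProg 5, the one library of its group that held it. Cd44 had 3.27 (SE 4.58), which turned to -6.08 without TetLowReg 8. Itgal had 0.01 (SE 4.07) and turned to -0.56 without TetHighProg 1, -0.57 without TetHighProg 2, -1.95 without TetLowReg 7 and -0.01 without TetLowProg 12. Its largest move was to 13.27, without TetHighProg 5. Itgb2 had 1.59 (SE 3.81), which was 15.69 without TetHighProg 5. At an unadjusted p under 0.05, edgeR put 1 of 8 adhesion genes (Cd2) higher in TetLowReg, against 19% of all genes, and 7 of 8 had a positive fold change, against 72.7%. The median log2 fold change was 4.52 over the 8 genes and 4.82 over all genes tested. Without Cd44, 6 of 7 were positive with a median of 5.77, which was the value of Cd48. The 15 counts of Cd48 in TetLowReg all lay in TetLowReg 7. Cd48, Itga4 and Itgb1 had 0 counts in TetHighProg and passed the count filter through low avidity libraries. Their fold changes could not be negative and depend on the prior count. DESeq2 called Cd48, Itga4 and Cd2 of 7 adhesion genes with an adjusted p (34.4% of all genes were called higher), limma-voom called Cd2, Itgal, Itgb2 and Itgb7 of 8 higher (41.3%), Itgb7 at a log2 fold change of 8.88 against the negative edgeR value, and DESeq2 with poscounts size factors called Itgb1 of 7 (21.1%). DESeq2 gave no adjusted p for Itgb1 with default size factors and none for Cd2 with poscounts, so these could not be called there. Fitted on the 2 groups alone, DESeq2 gave an adjusted p for 2 adhesion genes, Itgal and Itgb2, and called 0 of them (36%), so that Cd2, Itga4 and Itgb1 could not be called there, and edgeR called 0 of the 4 it tested (0.0791%).

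TetLowProg against TetHighProg compares the avidity groups within progressing tumors, and it shares the TetHighProg libraries with the comparison above. By the study's description both groups were sorted from the same 3 progressing tumors, but the labels do not say which libraries share a tumor, so the test treats them as independent. edgeR called 0 of the 8 genes and 0% of all genes. The fitted log2 fold changes of Itgb1 (14.20, SE 6.90), Cd2 (13.41, SE 5.03), Itga4 (13.26, SE 6.57) and Cd48 (13.11, SE 6.35) each had an adjusted p of 0.193 in the edgeR quasi-likelihood test with Benjamini-Hochberg adjustment. In summed counts Itgb1 was at least 4147-fold, Icam1 at least 3996-fold, Cd48 at least 1774-fold and Itga4 at least 1475-fold higher, and Cd2 was 17005-fold higher with a 95% counting interval of 3052 to 671686. TetLowProg 9 held most of the Itgb1, Icam1 and Cd48 counts, and without it these limits were at least 202-fold, 2.40-fold and 473-fold. Without TetLowProg 12 that of Itga4 was at least 764-fold and the Cd2 ratio was 7966-fold (95% counting interval 1429 to 314691), and without TetHighProg 1, which held the single Cd2 count, Cd2 was at least 3342-fold higher. Cd2, Itga4 and Cd48 were found in 2 of 3 TetLowProg libraries, 9 and 12, with an exact permutation p of 0.4 each.

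The Itgb1 libraries did not overlap between TetLowProg and TetHighProg (exact permutation p = 0.1, the smallest it can give), as for 6.67% of all genes, although TetLowProg 10 held 1 count of it. Those of Icam1, which edgeR did not test, did not overlap either, with 1 and 4 counts in TetLowProg 10 and 12. Itgal had a fitted log2 fold change of 2.24 (SE 4.26), Cd44 of 1.90 (SE 4.33), Itgb2 of 1.22 (SE 3.77) and Itgb7 of 0.79 (SE 3.70). These 4 values rested on TetHighProg 5, without which they were 15.42 for Itgal, 11.46 for Cd44, 15.29 for Itgb2 and 16.01 for Itgb7. That of Itgb7 turned to -0.22 without TetLowProg 9. At an unadjusted p under 0.05, 4 of 8 adhesion genes (Cd48, Itga4, Cd2 and Itgb1) were higher, against 24.8% of all genes. Of these, Cd48, Itga4 and Itgb1 had 0 counts in TetHighProg and passed the count filter only through low avidity libraries. The number is therefore no support for a difference. All 8 fold changes were positive, against 73.5% of all genes, with a median of 7.67 against 5.40 (log2). Those of Itga4, Itgb1 and Cd48, at 0 counts in TetHighProg, could not be negative, and they raise the median. Neither figure is thus a test of the 8 genes. Without Cd44, 7 of 7 were positive with a median of 13.11, a value that depends on the prior count because 3 of the 7 genes had 0 counts in TetHighProg. DESeq2 called Cd48, Itga4 and Cd2 of 7 (43.8% of all genes were called higher) and the same genes of 6 when fitted on the 2 groups alone (47.3%), limma-voom called all 8 (49.6%), and DESeq2 with poscounts size factors called Itgb1 of 7 (23.6%). Again Itgb1 with default size factors and Cd2 with poscounts had no adjusted p, and neither Itgb1 nor Itgb2 had one on the 2 groups alone. edgeR on the 2 groups alone called 0 of the 4 it tested (0.0357%).

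**Figure D4:**
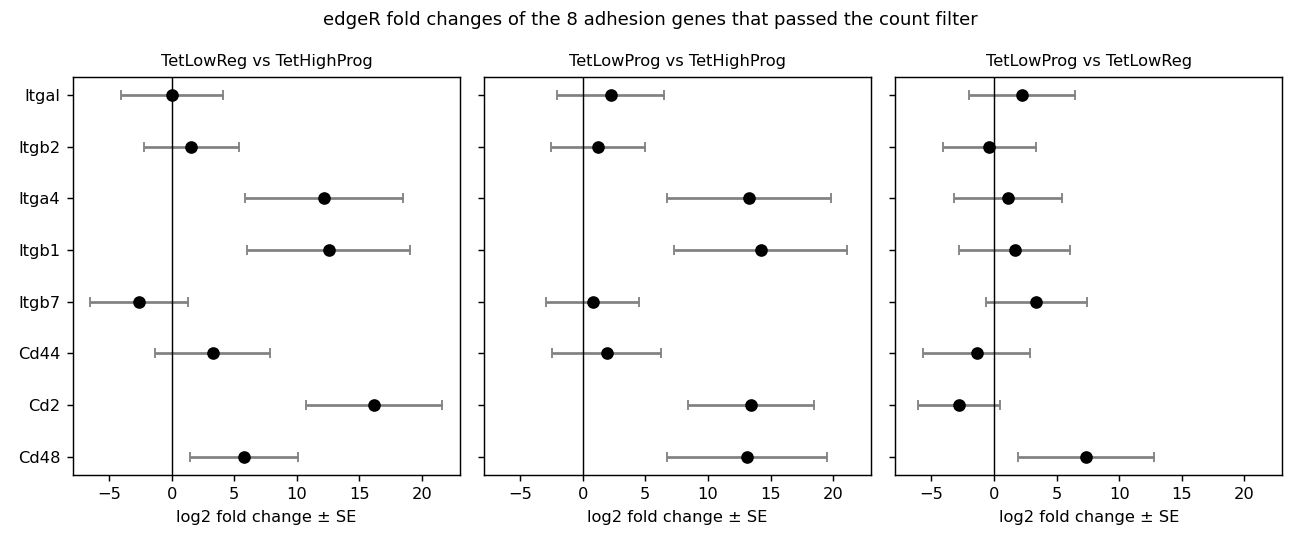
Fitted edgeR log2 fold changes with standard errors (bars) of the 8 adhesion genes that passed the count filter, 1 panel per comparison, with positive values for higher levels in the first group. Cd2, Itga4 and Itgb1 lie at 12.15 or above in both comparisons with TetHighProg, although without TetLowReg 7 the first comparison gives 4.21 for Itga4 and 3.02 for Itgb1, and none of the values passed the test.

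TetLowProg against TetLowReg compares low avidity cells by tumor outcome. edgeR called 0 of the 8 genes and 0% of all genes, and at an unadjusted p under 0.05 it put 0 of the 8 higher or lower, against 0.43% and 0.499% of all genes. DESeq2 called none of the adhesion genes higher with default size factors (1.49% of all genes), poscounts (0.255%) or the 2 groups alone (0.335%), limma-voom called none of them (0%), and no tool called any of them lower. Itgb7 was the gene whose libraries did not overlap, with 65.7 to 1002 CPM in TetLowProg and 0.0907 to 44.3 CPM in TetLowReg, as for 2.77% of all genes. Its summed level was 23.5-fold higher, or 7.31-fold without TetLowProg 9, its fitted log2 fold change was 3.38 (SE 4.03, edgeR quasi-likelihood test, Benjamini-Hochberg adjusted p = 1) and its exact permutation p was 0.1.

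Cd2 stood in the other order, 5.46-fold lower in the summed counts of TetLowProg, with a fitted log2 fold change of -2.77 (SE 3.27). The summed ratio was 1.25-fold without TetLowReg 6 and 11.7-fold without TetLowProg 12. That order rested on both ends: TetLowReg 6 held the highest level and TetLowProg 10 held none, and with the 4 libraries of few genes left out the fitted value was -0.46. Cd48 was 326-fold, Itgae 148-fold, Itgal 8.49-fold, Itgb1 6.81-fold, Itga4 3.17-fold and Icam1 3.17-fold higher in the summed counts of TetLowProg, with overlapping libraries for all 6. Several of these rested on TetLowProg 9: without it Itgae had 0 counts in TetLowProg, Icam1 was 527-fold and Itgb1 3.01-fold lower, Cd48 was 87.0-fold higher and Itgal 5.43-fold higher. Without TetLowReg 7, Itgal was 32.3-fold, Itga4 522-fold and Itgb1 5874-fold (95% counting interval 1054 to 232022) higher, and Icam1 at least 1887-fold, Itgae at least 355-fold and Cd48 at least 838-fold. Without TetLowProg 12 Itga4 was 1.64-fold higher. The fitted log2 fold change of Itgb1 (1.65) turned to -2.01 without TetLowProg 9, that of Itga4 (1.11) to -0.08 without TetLowProg 12, and that of Cd44 (-1.37) to 8.19 without TetLowReg 8. That of Itgb2 (-0.37) turned to 1.18 without TetLowReg 7 and to 0.18 without TetLowProg 10. Of the 8 genes 5 had a positive fold change, against 55.5% of all genes, with a median of 1.38 against 0.35 (log2), and without Cd44 5 of 7 with a median of 1.65.

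The share of all gene counts taken by the 10 genes averaged 0.0375% ± 0.0635 for TetHighProg, 0.155% ± 0.148 for TetLowReg and 0.153% ± 0.134 for TetLowProg (SD, n = 3), or 0.0370%, 0.152% and 0.151% without Cd44. The difference of 0.117 percentage points between TetLowReg and TetHighProg turned to -0.0414 when the 4 libraries with few genes were left out, and was 0.0320 without TetLowReg 6 alone, the library whose adhesion gene counts were nearly all Cd2. The difference of 0.116 between TetLowProg and TetHighProg was 0.106 without the 4 libraries and 0.0453 without TetLowProg 9.

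For the 5 adhesion genes found in 4 or more libraries, the tested genes most like them over the 9 libraries, by Pearson r of log2(CPM + 1), were Plekha2 (0.996) and Ppm1b (0.995) for Itgal, Sh2d2a and Arpp19 (both 0.998) for Itgb2, Rps6 (0.985) and Hnrnpa3 (0.979) for Itgb7, Prelid2 (0.993) and Tes (0.981) for Cd44, and Sirt7 (0.997) and Ramac (0.996) for Cd2. Such values describe libraries in which a gene was either present or close to 0. Among the 10 genes themselves, r was 0.959 for Itgal with Itgb2, 0.922 for Itgb1 with Icam1 and 0.889 for Itga4 with Itgb1, and -0.0255 for Cd2 with Itgb7. All 9 points share the spread in the number of genes found.

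Other genes of adhesion were followed in 6 lists of 74 genes, of which 64 were found in at least 1 library and edgeR called 0 in any comparison. In the list of integrin activation and linkage to actin, which holds proteins that switch integrins to their binding form, 14 of 19 genes were tested. Rap1b, the small GTPase that signals to integrins, was found in all 9 libraries, with 163498 to 329686 counts in TetHighProg, 806 to 86905 in TetLowReg and 33432 to 262870 in TetLowProg. Its CPM was lower in every TetLowReg library than in any TetHighProg library, as for 0.998% of all genes. Fyb1, an adapter on the path to LFA-1, had 585, 1 and 567 counts in TetHighProg, 89771, 12326 and 11060 in TetLowReg and 17867, 351 and 17184 in TetLowProg. Stk4, a kinase needed for integrin-dependent T cell traffic, had 0, 1 and 1811 counts, then 14687, 1636 and 2152, then 5326, 8367 and 3117. Vcl, the vinculin that ties integrin contacts to actin, had 0 counts in TetHighProg, 293, 179 and 269 in TetLowReg and 168, 0 and 0 in TetLowProg. For Fyb1 and Vcl every TetLowReg library stood above every TetHighProg library, as for 4.8% of all genes. Vcl also stood above every TetLowProg library, as for 0.654% of all genes, but narrowly. The closest values of Vcl were 179 counts in TetLowReg 7 and 168 in TetLowProg 9, out of 36429515 and 36339555 gene counts. Stk4 and Tln1 stood higher in every TetLowProg library than in any TetHighProg library, as for 6.67% of all genes, Tln1 with 1 count in TetLowProg 10.

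At an unadjusted p under 0.05, 3 of the 14 were higher in TetLowReg (Tln1, Apbb1ip and Vcl) and 3 in TetLowProg (Tln1, Rasgrp1 and Rassf5) than in TetHighProg, against 19% and 24.8% of all genes. The median log2 fold change over the list was 5.27 and 4.43, against 4.82 and 5.40 over all genes. In the list of selectins, Cd44-linked and other leukocyte adhesion genes, 13 of 16 were tested, and the medians were 3.61 and 4.05, both below those of all genes. At an unadjusted p under 0.05, Msn was higher and Cd226 lower in TetLowReg, and Spn, Msn and Cadm1 were higher in TetLowProg, than in TetHighProg. That was 1 of 13 higher against 19% of all genes and 1 of 13 lower against 0.516%, then 3 of 13 higher against 24.8%. Cd47, which limits uptake by phagocytes and binds integrins, was found in all 9 libraries, with 9696 to 72507 counts in TetHighProg, 125 to 12290 in TetLowReg and 11258 to 14856 in TetLowProg. Rdx, which ties Cd44 to actin, had 1, 0 and 0 counts, then 0, 792 and 60, then 4184, 39 and 795, so that TetLowProg and TetHighProg did not overlap, as for 6.67% of all genes.

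Of 11 genes of the CD2 and SLAM family and CD2 partners, 6 were tested, with medians of 7.11 and 7.90, against 4.82 and 5.40 over all genes. Slamf6 and Cd244a were higher at an unadjusted p under 0.05 in TetLowReg and Slamf1 in TetLowProg, each against TetHighProg, which was 2 of 6 against 19% of all genes and 1 of 6 against 24.8%. The other integrin chains were sparser: 3 of 15 alpha chains and 1 of 5 beta chains were tested, and 0 to 6 alpha chains were found per library. Of the 3 alpha chains 1 had a positive fold change against TetHighProg in each comparison, with medians of -2.48 and -2.01 (log2), while the beta chain, Itgb3, had 9.69 and 10.67. Itgam and Itgb3 were higher in TetLowProg than in TetHighProg at an unadjusted p under 0.05, against 24.8% of all genes. However, Itgam had 0 counts in TetLowProg 9 and 10, and Itgb3 had 0 counts in TetLowProg 10 and 12. Of the 8 integrin ligands 1 was tested, Icam2, another ligand of LFA-1, which had 0 counts in TetHighProg, 0, 3509 and 554 in TetLowReg and 715, 0 and 3642 in TetLowProg. Its summed level was at least 1473-fold higher in TetLowReg and at least 1272-fold higher in TetLowProg than in TetHighProg, against a limit of 3 counts over the group. Icam2 took most of these counts from TetLowReg 7 in the former group and from TetLowProg 12 in the latter. Its unadjusted p was under 0.05 against TetHighProg in both, as for 19% and 24.8% of all genes.

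**Figure D5:**
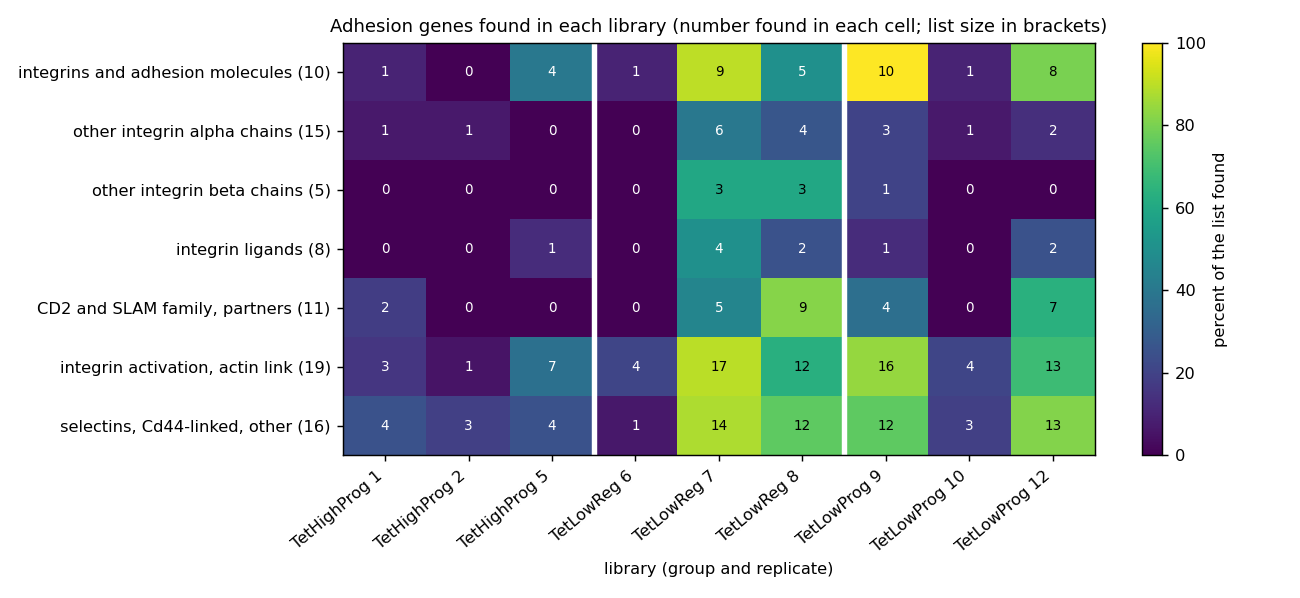
Number of genes found at 10 counts or more in each list of adhesion genes (rows, list size in brackets) in each library (columns), colored by the percent of the list found. TetLowReg 7 and 8 and TetLowProg 9 and 12 hold most of the genes found, with 3 of 5 other beta chains in each of the first pair and 4 of 8 ligands in TetLowReg 7.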

How the data were processed

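RNA of 9 sorted bulk samples was made into Smart-seq2 and Nextera XT libraries, and the authors aligned the reads to GRCm39 with STAR 2.7.6a. They deposited unnormalized counts of reads for each gene in a separate table for each library. featureCounts is named in the methods, but the layout is the one STAR itself writes. The release of the annotation is not given in the sources used here. Reads at several places or in overlapping genes are not in the gene counts. The unstranded column was used (50.2% to 50.8% of stranded reads fell on one strand). Of 32976 genes, 28645 matched GENCODE M39, and 4 summary lines per table were left out.

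Counts were tested with edgeR 4.0.16 in R 4.3.3 (quasi-likelihood test, TMM, default filter, prior count of 0.125, 3 groups in one model, Benjamini-Hochberg over 5813 genes). Because the prior count sets the fitted fold change of a gene at 0 in a group, summed counts with a limit of 3 counts per group are given beside it. Alternatives used DESeq2 1.42.0, limma 3.58.1 (voom with sample weights), other filters and scalings, and each library left out. Leaving libraries out of the summed counts and leaving out the 4 libraries with few genes together were alternatives chosen after seeing the data. CPM was compared by exact permutation (two-sided), unadjusted over 10 genes and 3 comparisons. Intervals are at 95%. Depth per sample was 16405306 to 36429515 gene counts.

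The 10 genes, the adhesion lists and the marker lists were chosen with earlier results of these data known. Other genes named are those found in 6 or more libraries, or not overlapping with 10 counts in every library of the higher group, up to 3 per list. Genes given by name with an unadjusted p, Cerkl and single marker genes were named after their values were seen. Promoter sequences were read from GRCm39 at GENCODE M39 starts, and the PU box was added to the motifs after the sequences had been read. NumPy 2.4.6, SciPy 1.17.1, pandas 2.3.3 and matplotlib 3.10.9 were used with Python 3.11.15.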

Additional observations from a re-analysis of the deposited data

Results flagged for a closer look

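The tables also hold counts by strand, which entered no comparison except as an alternative that summed them, where edgeR called 0 of 9 adhesion genes tested in each comparison. For Itga4 and Icam1 the sum of both strand columns was above the unstranded count, by at most 1 read in the TetHighProg libraries. For Itga4 the excess was 268 reads in TetLowReg 7, 473 in TetLowProg 9 and 17 in TetLowProg 12. For Icam1 it was 1783 reads in TetLowReg 7, 26 in TetLowReg 8, 3580 in TetLowProg 9 and 22 in TetLowProg 12. With both strands counted, Icam1 in TetLowReg 8 and TetLowProg 12 would stand at 26 reads each in place of 0 and 4. In GENCODE M39 both overlap a gene on the opposite strand, Cerkl for Itga4 and Gm47079 for Icam1, but Gm47079 was not matched in the tables, and Cd44, which overlaps Gm57471, likewise not matched, had no excess. The source of the excess was not tested.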

How the results depend on the processing

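No paired analysis was possible because the groups share no replicate numbers and the labels do not tie libraries to tumors. edgeR called 0 adhesion genes in each comparison under every filter and scaling tried with it and with each library left out. For TetLowReg against TetHighProg, DESeq2 called 3, DESeq2 with poscounts size factors 1 and limma-voom 4. They called 34.4%, 21.1% and 41.3% of all genes higher there. For TetLowProg against TetHighProg they called 3, 1 and 8, against 43.8%, 23.6% and 49.6% of all genes called higher. DESeq2 on the 2 groups called 3 in that comparison, against 47.3%. With the 4 libraries of few genes left out, an alternative chosen after seeing the data, the difference in the share of counts was -0.0414 points for TetLowReg against TetHighProg and 0.147 for TetLowProg against TetLowReg. The cause was not tested.

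Signs that turned were these. The log2 fold change of Itgal in TetLowReg against TetHighProg was -0.20 with no filter, -0.91 by library size, -0.0082 without mitochondrial genes, -0.082 with DESeq2, -1.10 with poscounts, -0.39 with DESeq2 on the 2 groups and -1.04 without the 4 libraries; that of Itgb7 was 8.88 with limma-voom. Against TetHighProg in TetLowProg, Itgb2 was -0.11 with poscounts and Itgb7 -0.72 without the 4 libraries. In TetLowProg against TetLowReg, Itgb2 was 0.57 by library size, 0.56 with DESeq2, 0.14 with limma-voom and 0.089 with DESeq2 on the 2 groups, and Cd44 was 1.63 with limma-voom.

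With each library left out in turn, TetLowReg against TetHighProg ranged from 4.21 to 12.81 for Itga4, 3.02 to 13.20 for Itgb1, -1.95 to 13.27 for Itgal, -3.21 to 12.74 for Itgb7, -6.08 to 12.91 for Cd44 and 0 to 6.41 for Cd48 and 0.21 to 15.69 for Itgb2. TetLowProg against TetHighProg ranged from -0.22 to 16.01 for Itgb7, 1.58 to 15.42 for Itgal, 0.47 to 15.29 for Itgb2 and 1.25 to 11.46 for Cd44. TetLowProg against TetLowReg ranged from -1.09 to 1.18 for Itgb2, -0.079 to 9.22 for Itga4, -2.01 to 11.59 for Itgb1 and -2.04 to 8.19 for Cd44. Cd2 kept its direction in every one of these, from 14.50 to 18.17 and 12.21 to 15.19 against TetHighProg and -4.10 to -1.15 in TetLowProg against TetLowReg. The common dispersion was 8.12, estimated from 3 libraries a group.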
